A study of Mus musculus with 8 samples.

Results

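The genes described here are 31 genes of B cells and of the lymphoid follicles in which B cells gather. They were chosen by name, for what they are known to do, but with earlier results of these data known. All 31 were found by symbol among the 53465 rows of the table. Of these, 28 had a mean of at least 3 on the scale of the table and were tested among 16380 genes that passed the same filter, and 3 (Fcer2a, Fcrl5 and Lta) fell below it. RNA was sequenced from the colon of 8 mice of the B6 background, 7 to 12 weeks old, with colitis induced by dextran sulfate sodium (DSS), which damages the epithelial lining. One group was 4 mice with a conditional deletion of Arg1 (Arg1 ko), the gene of the arginine-splitting enzyme arginase 1, and the other was 4 littermates that kept it (wild type). All 8 drank 2.5% DSS for a week and then water without it until day 10, so no group without colitis was analysed here. The labels call the deletion cell-specific and do not name the cell type. The tissue is labelled colon, whereas the protocol describes removal of Peyer's patches, the large lymphoid follicle clusters of the gut, followed by release of epithelial aggregates with 30 mM EDTA and their sedimentation.

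B cells carry an antibody on their surface, the B cell receptor, which signals through the paired chains Cd79a and Cd79b when it meets antigen. Coreceptors raise or damp this signal, kinases and adaptors pass it on, and a set of transcription factors led by Pax5 holds the cell in the B lineage until it becomes an antibody-secreting plasma cell. In the colon wall, B cells sit in small isolated lymphoid follicles whose formation depends on lymphotoxin, a TNF family cytokine, and on the chemokine Cxcl13, which draws in cells with the receptor Cxcr5.

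The values are regularised log2 values (rlog), on which a difference of 1 is a doubling before the shrinkage that rlog applies to weakly expressed genes. Arg1 itself had 5.59, 5.57, 5.02 and 5.58 in the wild-type-labelled libraries 1 to 4 and 5.06, 4.87, 5.15 and 5.19 in Arg1 ko 1 to 4. At 5.02, wild type 3 fell between Arg1 ko 2 and Arg1 ko 1, whereas wild type 1, 2 and 4 were above every ko value. The Arg1 difference (Arg1 ko minus wild type) was -0.37 (limma adjusted p = 0.522, exact two-sided permutation p = 0.114). The deletion is labelled cell-specific, and the ko libraries still held Arg1 RNA. The Arg1 value of wild type 3 therefore cannot decide whether its label is right, and that library is called by its label throughout. The 12 epithelial marker genes had a mean rlog of 14.20 to 14.65 per library, with the lowest in the library labelled wild type 3, and the 8 pan-leukocyte genes had 8.15 to 9.08, so both kinds of cell were present in every library. The sample numbers of each genotype follow each other, and no label says whether they mark a batch, so batch and genotype cannot be told apart. Depth per library is unknown, and in bulk tissue fewer cells of a type and less RNA per cell cannot be told apart.

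Upstream sequences are shown for 6 members on which the results below turn. Cr2 and Pax5 are the genes that stood highest above the rest in a single library, Cd22 is the member called when that library was left out, Ltb is among the members of smallest p, and Vpreb3 and Blnk hold a B cell motif. They come from RefSeq (GRCm38.p6), where 25 of the 31 members had an entry, and are the 250 bases before the annotated start, 5′ to 3′ on the strand of the gene. Capitals mark motifs found on either strand in the whole window of 300 bases, which runs to 50 bases past the start. The motifs searched were the octamer ATTTGCAT bound by Pou2f2 and its relatives, the EBF motif (TCCC, any 2 bases, GGGA), the NF-kB motif (GGGA, any 1 base, TTTCC) and the PU.1 motif GAGGAAGT. Positions count back from -1, the base before the start. The start is that of RefSeq, whereas the gene spans given below are those of GENCODE. The windows of Cd22, Vpreb3 and Blnk lie inside the GENCODE spans, and that of Ltb overlaps the beginning of its span. In these sequences no motif overlapped another.
Cr2: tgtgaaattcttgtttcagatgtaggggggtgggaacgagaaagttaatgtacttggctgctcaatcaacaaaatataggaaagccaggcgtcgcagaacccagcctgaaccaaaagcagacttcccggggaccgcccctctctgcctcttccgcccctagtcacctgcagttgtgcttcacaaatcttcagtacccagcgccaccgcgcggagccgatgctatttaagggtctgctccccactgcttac
Pax5: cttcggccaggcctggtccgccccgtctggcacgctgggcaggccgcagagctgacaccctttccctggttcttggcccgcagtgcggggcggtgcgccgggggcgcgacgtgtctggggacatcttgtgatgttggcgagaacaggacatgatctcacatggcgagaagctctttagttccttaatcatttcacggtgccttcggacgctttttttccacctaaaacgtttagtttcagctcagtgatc
Cd22: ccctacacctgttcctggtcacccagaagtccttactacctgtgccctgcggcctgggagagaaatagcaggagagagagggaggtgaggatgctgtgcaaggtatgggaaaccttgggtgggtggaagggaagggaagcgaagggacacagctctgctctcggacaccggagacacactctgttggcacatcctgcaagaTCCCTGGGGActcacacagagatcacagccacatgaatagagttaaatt
Ltb: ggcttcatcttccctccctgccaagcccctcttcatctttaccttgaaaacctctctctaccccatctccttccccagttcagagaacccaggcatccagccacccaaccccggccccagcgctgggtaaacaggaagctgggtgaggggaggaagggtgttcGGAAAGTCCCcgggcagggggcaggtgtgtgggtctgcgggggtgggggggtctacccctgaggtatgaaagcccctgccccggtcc
Vpreb3: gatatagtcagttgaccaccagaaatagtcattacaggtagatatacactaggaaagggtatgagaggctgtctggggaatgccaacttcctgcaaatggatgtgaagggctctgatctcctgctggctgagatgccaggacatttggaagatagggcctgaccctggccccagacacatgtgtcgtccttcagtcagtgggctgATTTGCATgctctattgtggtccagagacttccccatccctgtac
Blnk: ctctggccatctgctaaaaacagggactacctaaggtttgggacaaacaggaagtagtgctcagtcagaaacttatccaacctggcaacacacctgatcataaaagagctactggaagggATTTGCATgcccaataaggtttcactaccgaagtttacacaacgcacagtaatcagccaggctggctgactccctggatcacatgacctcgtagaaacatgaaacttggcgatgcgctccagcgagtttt
The positions are chr1:195176720-195176969 (minus strand) for Cr2, chr4:44710695-44710944 (minus strand) for Pax5, chr7:30879029-30879278 (minus strand) for Cd22, chr17:35194257-35194506 (plus strand) for Ltb, chr10:75948050-75948299 (plus strand) for Vpreb3 and chr19:40994222-40994471 (minus strand) for Blnk. The octamer was found in Vpreb3, from position -45 to -38, and in Blnk, from -130 to -123. It occurs in 1.74% of the 32851 promoters in the table. The EBF motif was found in Cd22 from -49 to -40 (0.904% of all promoters), and the NF-kB motif in Ltb from -87 to -78, read on the opposite strand (0.411% of all promoters). The PU.1 motif was found in Cd37, Cd72 and Fcrl1 among the members (3.2% of all promoters). Cr2 and Pax5 held none of these letters in this window.

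The dominant feature of these genes was a single library. In 21 of the 28 tested members the library labelled wild type 3 had the highest value of all 8, whereas it was the highest in 12.5% of all tested genes. Fcmr, 1 of the 21, passed the filter only through that library. Wild type 1 was the highest in 4 of 28, against 26.5% of all tested genes. Wild type 4 had the lowest value in 15 of 28 members, against 24.3% of all tested genes. The mean deviation of the members from their 8-library means was 0.14, -0.22, 0.72 and -0.38 in the wild-type-labelled libraries 1 to 4. It was 0.05, -0.11, -0.06 and -0.12 in Arg1 ko 1 to 4. The ko libraries thus lay close together between wild type 2 and 4 on one side and the library labelled wild type 3 on the other. The SD was larger in wild type than in Arg1 ko for 28 of 28 members, against 90.9% of all tested genes, with a median of 0.57 in wild type and 0.12 in Arg1 ko. Over all tested genes the medians were 0.26 and 0.10. By Dixon's criterion for groups of 4, a wild-type library lay apart from the other 3 in 5 of 28 members (4.55% of all tested genes) and a ko library in 1 of 28 (4.72%). The library labelled wild type 3 lay apart on the high side in 4 of the 28 members and in 0.855% of all tested genes.

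**Figure D1:**
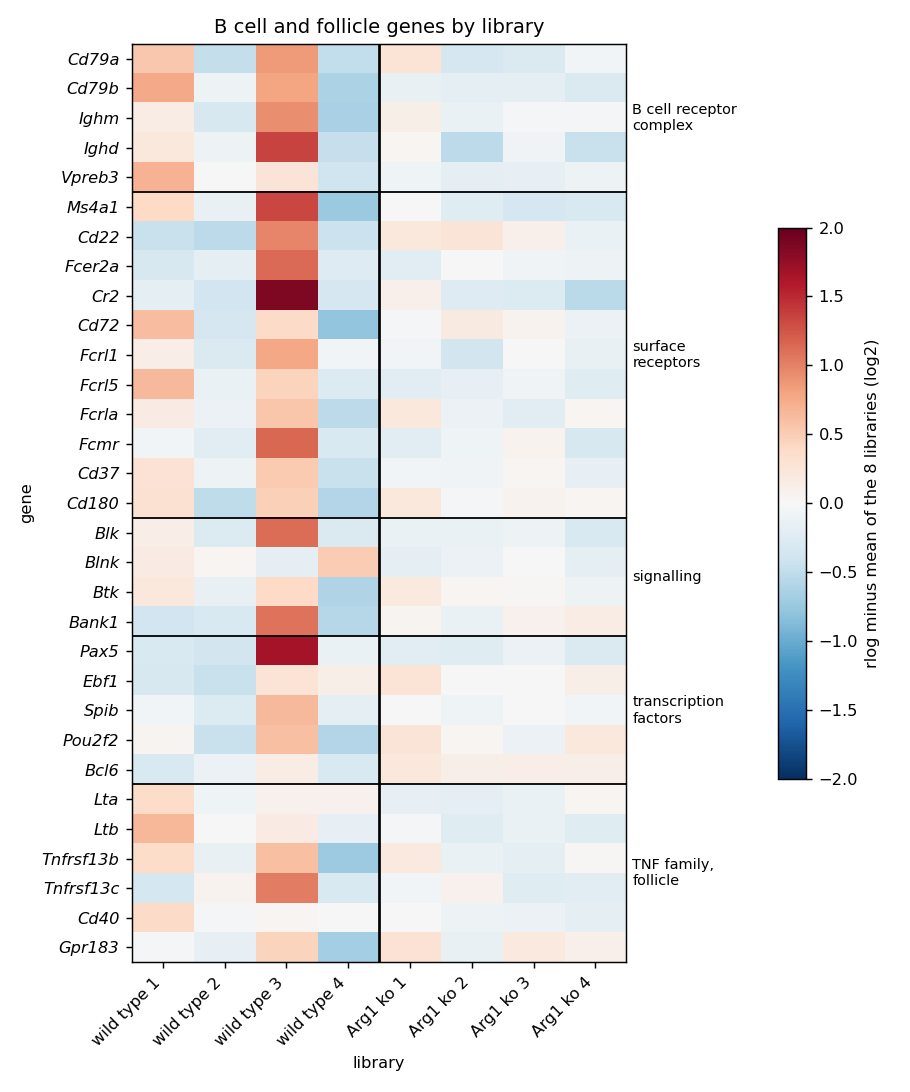
Deviation of each of the 31 genes (rows, grouped by role) from its mean over the 8 libraries (columns), as rlog on a log2 colour scale, red above and blue below the mean. The column of the library labelled wild type 3 is the reddest, with Cr2 and Pax5 the strongest, and most of the column of wild type 4 is blue.

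The B cell receptor itself was present in all libraries. Ighm (ENSMUSG00000076617, chromosome 12, 113418558 to 113422730, minus strand), the constant region of IgM, had an rlog of 8.49, 8.03, 9.28 and 7.70 in the wild-type-labelled libraries 1 to 4 and 8.46, 8.21, 8.31 and 8.32 in Arg1 ko 1 to 4. The wild-type values lay on both sides of all ko values, and the difference (Arg1 ko minus wild type) was -0.05 with a standard error of 0.28 (limma adjusted p = 0.943). It was 0.25 without the library labelled wild type 3. Cd79a (chromosome 7, 24897381 to 24902197), a signalling chain of the receptor, had 6.74, 5.73, 7.06 and 5.71 in the wild-type-labelled libraries 1 to 4. In Arg1 ko 1 to 4 it had 6.47, 5.88, 5.92 and 6.15, so the groups overlapped. Its difference was -0.20 with a standard error of 0.30, and 0.05 without the library labelled wild type 3. Its partner Cd79b averaged 6.37 ± 0.69 against 5.96 ± 0.06 in Arg1 ko (SD, n = 4 each), and here the libraries labelled wild type 1 (6.92) and 3 (6.95) were alike.

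Ighd, the constant region of IgD that marks naive B cells, was at 6.17 in the library labelled wild type 3, against a range of 4.30 to 5.04 in the other 7. Vpreb3, a chaperone-like protein of the receptor complex, departed from this order, since wild type 1 was the highest (4.26) and the library labelled wild type 3 the next (3.83). The differences were -0.50 for Ighd, -0.41 for Cd79b and -0.28 for Vpreb3, with limma adjusted p of 0.561, 0.567 and 0.567. The Ighd difference was -0.13 without the library labelled wild type 3. All 5 receptor genes had a lower mean in Arg1 ko, and 2 of 5 had a higher one without the library labelled wild type 3. Per kilobase of the longest annotated transcript, Ighm had the highest mean level of the 5 (7.58 on the rlog scale minus log2 of the length), followed by Cd79a (5.67) and Cd79b (5.65), which lay within their spread of each other, while Vpreb3 (4.02) and Ighd (3.97) were lower.

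Among the surface receptors, Cr2 had the widest range of all members. Cr2 (ENSMUSG00000026616, chromosome 1, 195136811 to 195176716, minus strand) is the complement receptor of mature B cells and follicular dendritic cells. Its rlog was 3.15, 2.95, 5.19 and 2.99 in the wild-type-labelled libraries 1 to 4, and 3.42, 3.06, 3.05 and 2.79 in Arg1 ko 1 to 4. A single wild-type library was high, 1.77 above the next of the other 7, and the other 3 lay inside the ko range. The difference of -0.49 (standard error 0.44, limma adjusted p = 0.641, exact two-sided permutation p = 0.629) was 0.05 without that library. Fcer2a, the low-affinity IgE receptor of follicular B cells (3.68 against 2.24 to 2.54), and Fcmr, an IgM receptor (4.27 against 2.80 to 3.18), had the same order, with the library labelled wild type 3 first. So did Ms4a1, the CD20 antigen, at 6.25 against 4.18 to 5.32, and Fcrl1, a receptor-like coreceptor, at 4.77 against 3.63 to 4.13.

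Cd72 and Cd37 were the surface members of highest mean. Cd72, an inhibitory coreceptor, had 7.54, 6.58, 7.31 and 6.14 in the wild-type-labelled libraries 1 to 4 and 6.90, 7.11, 6.99 and 6.80 in Arg1 ko 1 to 4. Cd37, a tetraspanin of leukocytes, had 7.18, 6.78, 7.41 and 6.45 against 6.83, 6.82, 6.93 and 6.73. In both, the wild-type values spread on either side of the ko values, with differences of 0.06 and -0.13 (limma adjusted p = 0.933 and 0.784). Under quantile normalisation the Cd72 difference was -0.00069, and for Cd37 it was 0.02 without the library labelled wild type 3. A gene on the opposite strand, Tesk1, overlaps Cd72 exons by up to 1423 bases. Reads of Cd72 and Tesk1 cannot be told apart if the counting ignored strand.

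Cd180, a Toll-like receptor relative of B cells and macrophages, ranged from 4.52 to 5.58, and Fcrla, a soluble Fc receptor-like protein, from 3.97 to 5.04. Fcrl5, an inhibitory Fc receptor-like protein, was highest in wild type 1 (2.96) and between 2.03 and 2.76 elsewhere. No surface member had groups that did not overlap, a pattern seen in 4.03% of all tested genes (2.36% with all ko values above and 1.67% with all below).

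Cd22 (ENSMUSG00000030577, chromosome 7, 30865402 to 30880342, minus strand), a sialic acid-binding receptor that damps B cell receptor signals, is described after its values were seen. It had 5.32, 5.24, 6.74 and 5.33 in the wild-type-labelled libraries 1 to 4 and 5.97, 6.02, 5.87 and 5.63 in Arg1 ko 1 to 4. All 4 ko values lay above 3 of the wild-type values and below the fourth. With 8 libraries the difference was 0.22 with a standard error of 0.30 (limma adjusted p = 0.765, exact two-sided permutation p = 0.629). Without the library labelled wild type 3 it was 0.58 with a standard error of 0.12 (limma adjusted p = 0.0394, range over the alternatives 0.0394 to 0.956). Leaving out the only wild-type library above the ko values enlarges this difference by construction. An antisense gene, Gm29439, overlaps Cd22 exons by up to 264 bases, and reads of the pair cannot be told apart if the counting ignored strand.

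**Figure D2:**
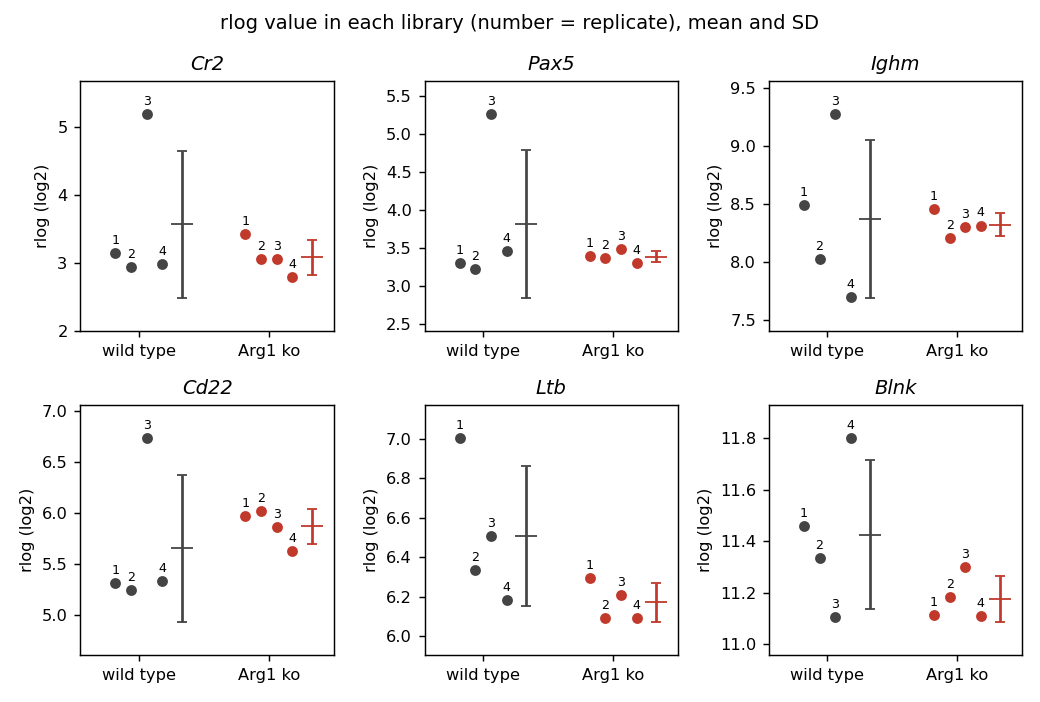
rlog (log2, vertical axis, each panel with its own range) of 6 members in each library, grey for wild type and red for Arg1 ko, with the replicate number above each point and the mean ± SD beside it. In Cr2, Pax5, Ighm and Cd22 replicate 3 of wild type is the highest point, in Ltb it is replicate 1 and in Blnk replicate 4.

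The signalling members fell into different patterns. Blk, a Src family kinase of B cells, was at 4.82 in the library labelled wild type 3, against a range of 3.41 to 3.84 elsewhere. Bank1, a scaffold of B cell receptor signalling, was at 5.23 there and between 3.56 and 4.28 elsewhere. Btk, the kinase that activates phospholipase C gamma and is also found in myeloid cells, had 6.18, 5.83, 6.37 and 5.37 in the wild-type-labelled libraries 1 to 4 and 6.16, 6.01, 5.99 and 5.86 in Arg1 ko 1 to 4. Its groups overlapped, with a difference of 0.07 (limma adjusted p = 0.887) that was -0.12 without wild type 4.

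Blnk (chromosome 19, 40928927 to 40994535, minus strand), the adaptor that links Syk to downstream signals, had another order. Its rlog was 11.46, 11.34, 11.11 and 11.80 in the wild-type-labelled libraries 1 to 4 and 11.11, 11.18, 11.30 and 11.11 in Arg1 ko 1 to 4. It was thus highest in wild type 4, where most members were lowest, and the library labelled wild type 3, where most were highest, was level with Arg1 ko 1 and 4 at the bottom (11.11 in each). The difference was -0.25 with a standard error of 0.14 (limma adjusted p = 0.527, exact two-sided permutation p = 0.171). Per kilobase its mean level was 9.12 on the length-corrected rlog scale, the highest of the 31 members, against 2.49 for Blk. The mean rlog of Blnk was above that of 88.6% of the tested genes, while those of Blk and Pax5 were above 5.68% and 4.77%.

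Pax5 (ENSMUSG00000014030, chromosome 4, 44524757 to 44710487, minus strand), the factor that fixes B cell identity, is described after its values were seen. It had 3.30, 3.23, 5.27 and 3.46 in the wild-type-labelled libraries 1 to 4 and 3.39, 3.37, 3.48 and 3.31 in Arg1 ko 1 to 4. The library labelled wild type 3 was 1.78 above the next, and the other 7 lay within 3.23 to 3.48. The difference was -0.43 (limma adjusted p = 0.643), and 0.06 without that library. Exons of Pax5 overlap those of 2 antisense genes.

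Bcl6, which directs germinal centre B cells and follicular helper T cells and is also expressed outside lymphocytes, had 7.88, 8.06, 8.32 and 7.87 in the wild-type-labelled libraries 1 to 4. In Arg1 ko 1 to 4 it had 8.39, 8.29, 8.30 and 8.29, above 3 of the 4 wild-type libraries. Its unadjusted limma p of 0.0417 was the only one under 0.05 among the members, where 9.1% of all tested genes had such a p. The difference was 0.29 with a standard error of 0.12 (limma adjusted p = 0.522, range over the alternatives 0.0532 to 0.819). The exact two-sided permutation p was 0.114, where 0.0286 is the smallest that 4 against 4 can give. Without the library labelled wild type 3 it was 0.38.

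Ebf1, a pioneer factor of the B lineage also expressed in stromal cells, had 7.13, 7.01, 7.72 and 7.57 in the wild-type-labelled libraries 1 to 4 and 7.73, 7.46, 7.46 and 7.57 in Arg1 ko 1 to 4. Its difference was 0.20 with a standard error of 0.17 (limma adjusted p = 0.628), and the groups overlapped. Spib, an Ets factor of B cells, plasmacytoid dendritic cells and M cells, was at 7.43 in the library labelled wild type 3, against a range of 6.49 to 6.77 in the others. Pou2f2, which encodes the octamer-binding factor Oct-2, ranged from 5.35 to 6.53. Without the library labelled wild type 3, all 5 transcription factors had a higher mean in Arg1 ko, by 0.06 to 0.43. None passed the limma test, and 51.5% of all tested genes were higher. That library held the highest wild-type value of all 5, so leaving it out raises each difference by construction.

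Of the 5 tested TNF family and follicle members, the library labelled wild type 3 was the highest in Tnfrsf13b, Tnfrsf13c and Gpr183, and wild type 1 in Ltb and Cd40. Ltb (chromosome 17, 35194439 to 35196320), the membrane anchor of lymphotoxin made by B cells, T cells and innate lymphoid cells, had 7.00, 6.34, 6.51 and 6.18 in the wild-type-labelled libraries 1 to 4 and 6.29, 6.09, 6.21 and 6.09 in Arg1 ko 1 to 4. The groups overlapped in the ranges of wild type 4 and Arg1 ko 1 and 3. The difference was -0.34 with a standard error of 0.17 (limma adjusted p = 0.522, exact two-sided permutation p = 0.0857), and it was -0.17 without wild type 1 and -0.34 without the library labelled wild type 3. Lta, the other lymphotoxin chain, was weak, at 2.65 to 3.10 in wild type and 2.55 to 2.76 in Arg1 ko.

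Cd40, through which helper T cells stimulate B cells, had 5.64, 5.23, 5.29 and 5.25 in the wild-type-labelled libraries 1 to 4 and 5.25, 5.15, 5.14 and 5.08 in Arg1 ko 1 to 4. The groups touched, with the lowest wild-type value just below the highest ko value. The difference was -0.20 with a standard error of 0.12 (limma adjusted p = 0.549, exact two-sided permutation p = 0.0571), and -0.10 without wild type 1.

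The receptors for the B cell survival factors BAFF and APRIL differed from each other. Tnfrsf13b, which encodes TACI, had 6.62, 6.11, 6.85 and 5.53 in the wild-type-labelled libraries 1 to 4 and 6.45, 6.12, 6.08 and 6.28 in Arg1 ko 1 to 4, a difference of -0.05 (limma adjusted p = 0.945) that was 0.15 without the library labelled wild type 3. Tnfrsf13c, which encodes the BAFF receptor of mature B cells, was at 5.06 in the library labelled wild type 3, against a range of 3.69 to 4.11 in the other 7. Gpr183, an oxysterol receptor that guides B cells and innate lymphoid cells to follicles, ranged from 4.17 in wild type 4 to 5.30 in the library labelled wild type 3.

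Between the genotypes, no member passed the test over all genes. With limma and 8 libraries 0 of 28 members had an adjusted p under 0.05, as had 0 of all 16380 tested genes (0% called). Bcl6 alone had an unadjusted limma p under 0.05. Of the members, 9 had a higher and 19 a lower mean in Arg1 ko, where 51.2% of all tested genes were higher, and the median difference was -0.16 against 0.01 over all tested genes. The 4 ko values lay entirely above or entirely below the wild-type values in 0 of 28 members. This direction rested on 1 library. Without the library labelled wild type 3 the members split into 19 higher and 9 lower, with a median difference of 0.07, and 51.5% of all tested genes were higher. That library was the highest in 21 of the 28, so leaving it out raises the differences of those members by construction. Cd22 was then the only member called, 1 of 28 against 6.14% of all tested genes (1005 called, 2.85% of all tested genes being higher in Arg1 ko). Bank1 (0.46, limma adjusted p = 0.0517) and Bcl6 (0.38, limma adjusted p = 0.0532) came next. Without wild type 4, the library lowest in most members, 5 were higher and 23 lower, with a median difference of -0.29 and no call.

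**Figure D3:**
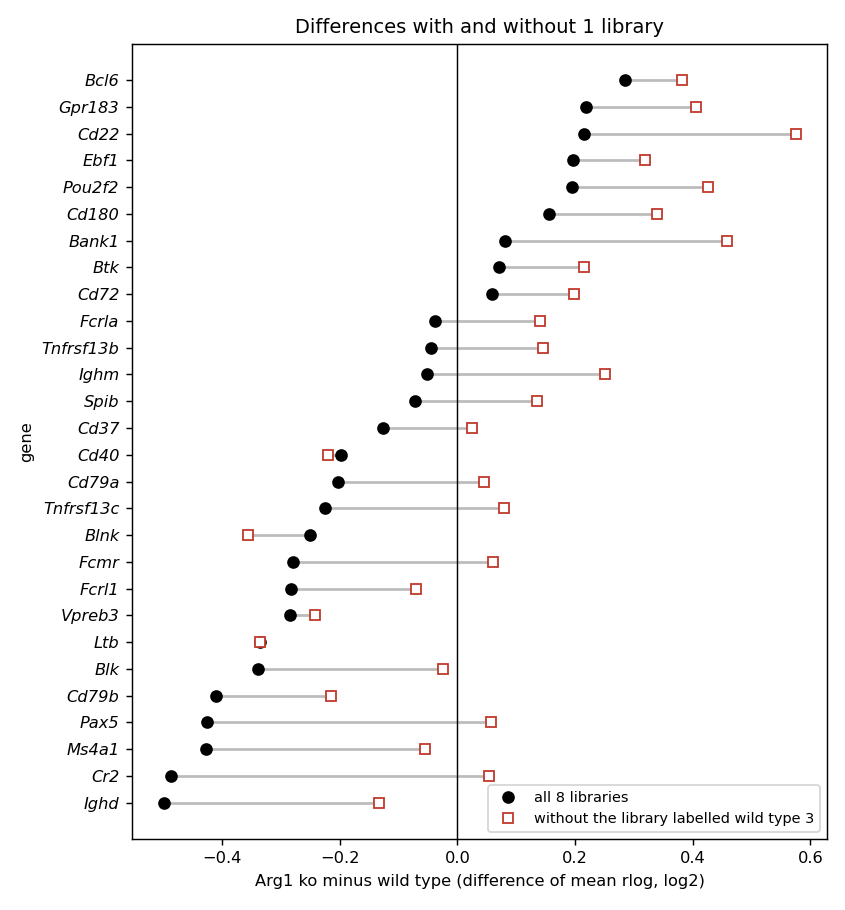
Difference of mean rlog (log2), Arg1 ko minus wild type, of the 28 tested members with all 8 libraries (black circles) and without the library labelled wild type 3 (open red squares). The median moves from -0.16 to 0.07, and 10 members cross from below to above 0.

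The height of the library labelled wild type 3 was shared by few other genes. It exceeded every other library by at least 0.5 in 12 of 28 members and in 0.452% of all tested genes (74 genes), and by at least 1 in 23 genes. Among these 23 were 4 members (Pax5, Cr2, Ighd and Fcmr), 12 antibody variable segments and 6 genes of skeletal muscle. Fcmr, at 2.80 to 3.18 elsewhere, reached the filter mean of 3 only through that library. It is therefore counted here partly because of the filter. Other libraries stood apart in more genes. By the same rule wild type 1 was at least 0.5 above every other library in 207 genes and wild type 4 in 379. Each remaining library was so in 37 or fewer. With a gap of at least 1 the counts were 25 for wild type 1 and 48 for wild type 4. These thresholds were chosen after the values were seen.

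The skeletal muscle genes were listed after this was seen, as 16 genes of which 12 were tested. Their mean rlog was 4.68 to 4.83 in 7 libraries and 6.30 in the library labelled wild type 3, and that library was the highest in 11 of the 12. Myh4, a fast-muscle myosin heavy chain, had 6.05 there and 2.56 to 2.97 elsewhere. Like Fcmr, it passed the filter only through that library. The part of this tissue difference in the B cell gene values was not tested.

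The other genes of B cell receptor signalling, a list of 22, gave 14 higher and 8 lower means in Arg1 ko, a median difference of 0.03 and no call. The genes of smallest p were Syk (0.23), the kinase that docks on the receptor, Bcl10 (-0.23), a bridge to NF-kB, and Pik3ap1 (0.40), an adaptor for PI3 kinase, each with a limma adjusted p of 0.522. Among 20 further genes of B cells, 8 were higher and 12 lower, with a median of -0.04 and no call. Once the library labelled wild type 3 was left out, 14 of the 20 were higher (51.5% of all tested genes), median 0.13. Ikzf3 and Tlr9 were then called, 2 of 20 against 6.14% of all tested genes. Of the 22 signalling genes, 14 were again higher without that library, with a median of 0.10. Those called were 3 of 22, including Bcl10 and Pik3ap1. The library left out was the highest in Ikzf3, Tlr9 and Pik3ap1 and the lowest wild-type library in Bcl10. Leaving it out enlarges these differences by construction. The library labelled wild type 3 was the highest in 11 of these 20, and in 10 of the 22 signalling genes.

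Of 24 follicle niche genes, 20 were tested, and Arg1 ko had the higher mean in 5 and the lower in 15 (median difference -0.08). Without the library labelled wild type 3, which was the highest in 8 of the 20, the split was 10 and 10 with a median of -0.03. Cxcl13, the chemokine that organises follicles, had 9.02, 9.17, 9.01 and 9.52 in the wild-type-labelled libraries 1 to 4 and 8.44, 8.66, 8.56 and 8.62 in Arg1 ko 1 to 4. All 4 ko values lay below all 4 wild-type values, as in 1.67% of all tested genes, and the difference was -0.61 with a standard error of 0.13 (limma adjusted p = 0.522). With the library labelled wild type 3 left out, the limma adjusted p was 0.0345, where 6.14% of all tested genes were called. Cxcl13 had its lowest wild-type value in that library, so leaving it out enlarges the difference by construction. Cxcr5, the receptor of Cxcl13, did not share this separation of the groups. Its means were 3.76 ± 0.61 in wild type against 3.75 ± 0.09 in Arg1 ko (SD, n = 4 each). Ccl20, the ligand of Ccr6, differed by -0.37. The chemokines Ccl19 and Ccl21a of T cell zones were at the bottom of the scale in all libraries.

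Germinal centre, plasma cell and T cell genes are given beside the members because the same tissue holds these cells. Of 13 germinal centre genes 10 were tested, of which 8 were higher and 2 lower, with no call. The split was the same without the library labelled wild type 3. Fas was then called, lower in Arg1 ko, 1 of 10 against 6.14% of all tested genes. In Fas that library was the lowest of wild type, so leaving it out enlarges the difference by construction. Of 13 plasma cell genes 4 were higher and 9 lower, with a median of -0.07 and no call, and 7 were higher without the library labelled wild type 3. Their mean deviation was 0.48, -0.15, 0.26 and -0.49 in the wild-type-labelled libraries 1 to 4 and -0.19 to 0.11 in Arg1 ko, so wild type 1 and not the library labelled wild type 3 led them. Jchain, which joins IgA and IgM units, had 14.15, 13.11, 13.87 and 12.69 against 13.75, 13.24, 13.16 and 13.76. Of 18 T cell genes 8 were higher and 10 lower, with no call. When the library labelled wild type 3 was left out, 12 were higher. Cd28 was then called, 1 of 18 against 6.14% of all tested genes. That library was the highest in Cd28, so its omission raises the difference by construction. The mean deviation of the T cell genes was 0.27, 0.02, 0.20 and -0.52 in the wild-type-labelled libraries 1 to 4. Cd3e, a chain of the T cell receptor complex, averaged 6.99 ± 0.49 in wild type against 7.12 ± 0.12 in Arg1 ko (SD, n = 4 each). The pan-leukocyte genes had 0.39, -0.11, 0.27 and -0.55, so wild type 4 was the lowest in each of these lists as it was in the B cell genes. The part of this lower leukocyte level in the members' values was not tested.

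**Figure D4:**
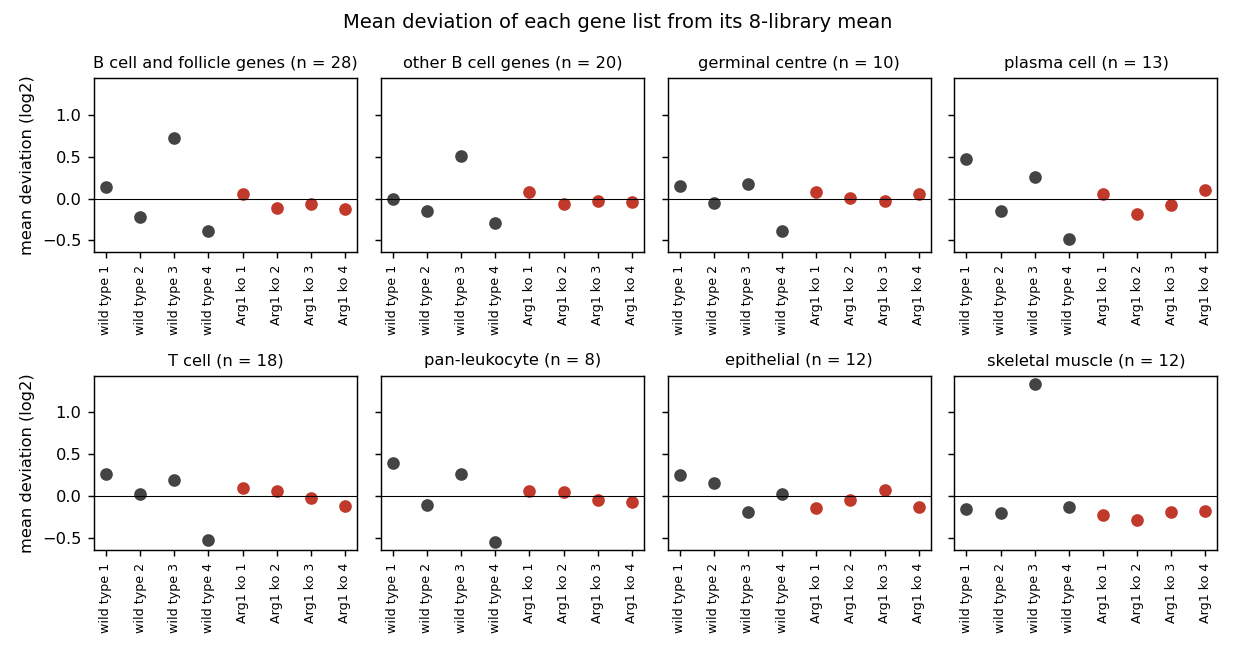
Mean deviation (log2) of 8 gene lists from their 8-library means in each library, grey for wild type and red for Arg1 ko, n being the genes tested. The library labelled wild type 3 leads the B cell lists and the skeletal muscle list, wild type 1 leads the plasma cell, T cell and pan-leukocyte lists, and wild type 4 is lowest in the B cell, plasma cell, T cell and pan-leukocyte lists.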

How the data were processed

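The authors deposited 1 table of rlog values, regularised log2 expression in which library size is corrected for and weakly expressed genes are shrunk toward their mean. The submitters' processing notes name DESeq2 1.16.1, featureCounts, Subread 1.5.3, STAR 2.5.2b and BWA 0.7.14-r1136, and the build GRCm38. Their order, options, annotation and strand setting are unknown, being not given in the sources used here. Per the labels' protocols, 1000 ng of RNA went into each stranded mRNA library. All 8 columns were matched to samples by their label. Genes were named by Ensembl ID, with coordinates from GENCODE M21 (GRCm38, 1-based).

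Genes whose mean rlog reached 3 entered the test of limma 3.58.1 under R 4.3.3 (group term, prior that follows the mean, two-sided, Benjamini-Hochberg over all tested genes, threshold 0.05). A check on simulated data came first. It gave both groups the same SD, whereas here the SD was larger in wild type for 90.9% of all tested genes. Exact permutation tests used the 70 assignments of samples. Replicate numbers follow the order of deposit. Nothing says more of the samples than that they are separate mice, and p-values measure only the spread among these 8. Members and lists were chosen with earlier results of these data known.

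Values in every library are given for the 2 members of highest mean in each of 5 role groups, the 4 of smallest p, any called or without overlap, and the widest in range. Cd22, Pax5 and the skeletal muscle list were added after their values were seen. Lists named only here are plasmacytoid dendritic cell (5 of 7 higher in Arg1 ko), myeloid (7 of 10), M cell (0 of 5), fibroblast (6 of 8) and endothelial genes (4 of 7). None had a call in the 8 libraries. When the library labelled wild type 3 was left out, 3 of 8 fibroblast genes and 0 of the others were called (6.14% of all tested genes). All 3 were higher in Arg1 ko. The fibroblast list had a mean deviation of 0.09 in that library, against -0.24, -0.30 and -0.16 in wild type 1, 2 and 4. Leaving it out thus tends to enlarge such differences by construction. Alternatives were leaving out each library, no filter or a minimum mean of 5, quantile normalisation or aligned medians, robust moderation or 1 prior variance, and an adjusted p of 0.1. Some listed genes are not reported here.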

Additional observations from a re-analysis of the deposited data

Results flagged for a closer look

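In 6 members a wild-type library stood apart from the other 3 by Dixon's criterion for groups of 4, which chance meets in about 1 group in 20. For 5 of them this was the library labelled wild type 3, the highest in each: Pax5 (5.27), Cr2 (5.19), Bank1 (5.23), Cd22 (6.74) and Fcer2a (3.68), the last of which lay below the filter. In Cd40 it was wild type 1 (5.64). In Arg1 ko, Bcl6 was apart in replicate 1 (8.39), although the 4 ko values span only 0.09.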

How the results depend on the processing

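No paired analysis was possible because the labels give the groups no shared replicate numbers. No member and no gene was called under any alternative of filter, scaling, moderation or threshold (0 in each). With a minimum mean of 5 the members' median difference was -0.05, with 7 of 16 higher in Arg1 ko. The sign of the difference held for 14 of the 28 members under every alternative run. Leaving out single libraries, the number of all genes called ranged from 0 to 1005, of members called from 0 to 1 and of members higher in Arg1 ko from 5 to 19, and the members' median difference from -0.29 to 0.07. The upper ends came without the library labelled wild type 3 and the 5 without wild type 4. Quantile normalisation turned the Cd72 difference to -0.00069. Over the single-library omissions the difference changed sign for these members, given as lowest and highest: Bank1 -0.10 and 0.46, Btk -0.12 and 0.21, Cd180 -0.012 and 0.34, Cd37 -0.30 and 0.025, Cd72 -0.19 and 0.27, Cd79a -0.40 and 0.045, Cr2 -0.69 and 0.054, Fcmr -0.43 and 0.060, Fcrla -0.22 and 0.14, Ighm -0.28 and 0.25, Pax5 -0.62 and 0.058, Spib -0.18 and 0.13, Tnfrsf13b -0.29 and 0.15, Tnfrsf13c -0.38 and 0.078. The cause was not tested. The rlog shrinkage makes differences of weak members such as Pax5 and Cr2 too small, and the unknown depth allows no interval for counting error.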
